A study of Mus musculus with 6 samples.

Results

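The genes described here carry glucose carbon from the cell surface to the mitochondrion: the glucose carrier Slc2a1, the enzymes of glycolysis, lactate dehydrogenase and the lactate carriers, the mitochondrial pyruvate carrier, the pyruvate dehydrogenase complex with its kinases, and pyruvate carboxylase. They were taken by gene symbol from the GENCODE M21 annotation, 33 genes of the 23492 with at least 1 read, and 157 of their transcripts had reads. The rule uses gene symbols alone. The samples were epididymal white fat, a visceral depot that lies against the epididymis, and Nanopore sequencing of direct cDNA, which gives long reads of unamplified molecules, was run on 100 ng of poly-A RNA a library. All 6 mice were wild-type C57BL/6N males aged 20 weeks. The 3 mice of the ctrl group (mice 5, 6 and 10) were kept under the base housing of 22 to 24 °C, and the 3 mice of the cold group (mice 7, 12 and 16) spent 24 h alone at 4 °C. The labels do not say whether ctrl mice were housed singly, so temperature and single housing cannot be told apart. Whole tissue was used, so fewer cells of a type and less RNA per cell cannot be told apart in any value given here.

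In glycolysis, hexokinase traps glucose as glucose-6-phosphate, phosphofructokinase commits it to breakdown, and the later enzymes convert triose phosphates to pyruvate. Lactate dehydrogenase interconverts pyruvate and lactate, whereas the mitochondrial pyruvate carrier and pyruvate dehydrogenase pass pyruvate to the citric acid cycle or, in fat cells, to fatty acid synthesis. Many steps have several isozymes from separate genes, and some genes, such as Pkm, make alternative enzymes by splicing.

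Transcript forms of 4 of the genes differ by short coding stretches, shown here because the shares of forms reported further on rest on them. All are GRCm38 sequences from GENCODE M21 transcripts, written 5′ to 3′ on the strand of the gene. Pkm, pyruvate kinase of muscle and most other tissues, uses either of 2 exons of 167 bases, the M1 exon at chr9:59675029-59675195 or the M2 exon at chr9:59675568-59675734 on the plus strand. The capitals mark the 64 positions at which they differ.
M1 exon: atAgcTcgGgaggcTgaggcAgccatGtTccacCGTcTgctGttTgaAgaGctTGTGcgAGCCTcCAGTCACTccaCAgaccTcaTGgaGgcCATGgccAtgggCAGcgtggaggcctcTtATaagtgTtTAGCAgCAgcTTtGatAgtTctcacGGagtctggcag
M2 exon: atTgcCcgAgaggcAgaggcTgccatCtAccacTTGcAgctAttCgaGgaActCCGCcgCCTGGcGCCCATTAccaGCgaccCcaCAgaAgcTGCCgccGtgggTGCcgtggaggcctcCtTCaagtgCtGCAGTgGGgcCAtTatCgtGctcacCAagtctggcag

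Pfkfb3, which makes fructose-2,6-bisphosphate, a potent activator of phosphofructokinase, has an optional coding exon of 87 bases at chr2:11481247-11481333 on the minus strand. Ldha, the muscle-type lactate dehydrogenase subunit, has a form (Ldha-214) that lacks 51 coding bases at chr7:46848973-46849023 on the plus strand. The transcripts Mpc1-208 and Mpc1-201 of the pyruvate carrier subunit Mpc1 use different exons of 4 bases, at chr17:8293415-8293418 and chr17:8296527-8296530 on the plus strand, and the capital marks the only base that differs in the 44 spliced bases around them.
Pfkfb3 cassette: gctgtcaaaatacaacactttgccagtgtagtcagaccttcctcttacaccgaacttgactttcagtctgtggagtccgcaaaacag
Ldha stretch: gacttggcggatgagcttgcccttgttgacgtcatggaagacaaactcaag
Mpc1-208 around the 4-base exon: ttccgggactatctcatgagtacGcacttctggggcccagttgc
Mpc1-201 around the 4-base exon: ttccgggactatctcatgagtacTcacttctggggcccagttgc

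Libraries held 726283 to 1341592 reads, so 1 read was worth 0.747 to 1.38 CPM, the count of a gene scaled to 1000000 reads assigned to genes. The tissue label was borne out by 12 of 12 adipocyte markers, which summed to 69157 to 78927 CPM. Other markers were less even. The epididymis and sperm list, with 9 of 12 genes read and Defb48, Lcn9 and Spint4 at 0, summed to 2.13, 12.7 and 5.30 CPM in ctrl 5, 6 and 10 and to 409.5, 117 and 15.3 CPM in cold 7, 12 and 16. The epithelial list, with 8 of 8 genes read, summed to 9.71 to 25.6 CPM in ctrl and 56.5 to 112 CPM in cold. Both of its tested genes (Epcam, Cldn7) rose. Of its untested genes, Cdh1, Elf3 and Cldn3 were higher in cold without overlap, Cdh1 on 1 read in cold 7. Krt7 went the other way, with a mean of 9.34 CPM in ctrl and 5.75 CPM in cold and overlapping groups. Ehf also overlapped, and Cldn4 had 1 read in all. The library of cold 16 had the smallest share of protein-coding reads (86.9%, others 89.3% to 89.7%) and the largest share of retained-intron reads (4.38%, others 3.25% to 3.63%). How far these differences entered the values below was not tested.

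After 24 h of cold none of the glycolysis and pyruvate genes passed the test. Of 29 tested genes, 0 rose and 0 fell at an adjusted p under 0.05 (edgeR quasi-likelihood test, Benjamini-Hochberg adjustment over all genes), against 0.655% of all 9772 tested genes, and 1 (Pdk2) had an unadjusted p under 0.05, against 8.43%. DESeq2 and limma-voom also called 0 of them. The enzyme mRNAs kept to a narrow range: log2 fold changes ran from -0.21 (Pdk1) to 0.48 (Slc2a1), with standard errors of 0.121 to 0.42, and the median was 0.11, beside 0.01 over all tested genes. Of the 29, 21 lay above 0 and 8 below, a larger share above 0 than the 50.8% of all genes, and the set as a whole was not tested. The 95% confidence interval stayed within a 2-fold change for 28 of them (all but Slc2a1), and for the 20 genes with at least 500 reads the widest bounds were 0.75-fold and 1.62-fold. Together the 33 genes took 0.673% of reads in ctrl and 0.701% in cold, with summed levels of 6614, 7238 and 6337 CPM in ctrl and 7066, 7289 and 6681 CPM in cold. Pfkfb2, Slc16a3, Eno3 and Aldoc had too few reads to be tested.

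**Figure D1:**
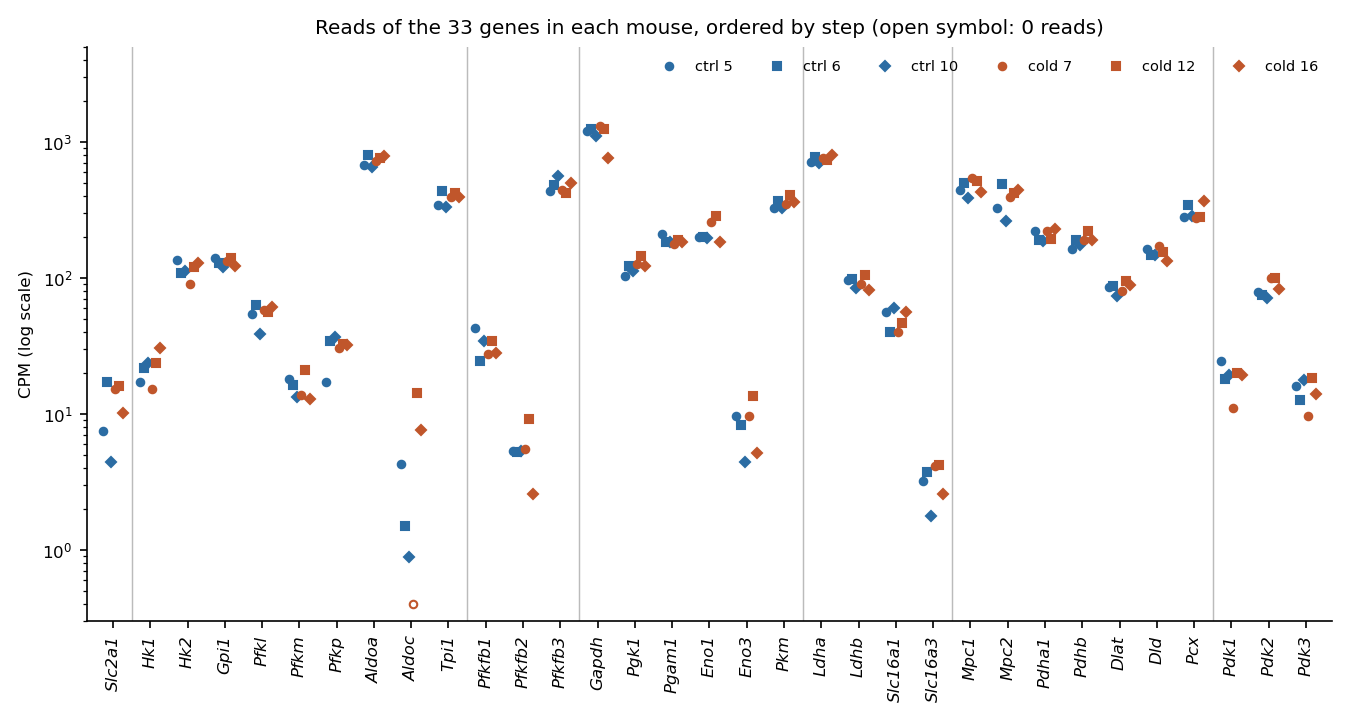
Level of each of the 33 genes in each mouse, in CPM on a log axis, in the order of the pathway; vertical lines separate the steps and an open symbol marks 0 reads. Ctrl (blue) and cold (orange) symbols overlap for most genes, from Gapdh near the top of the axis to Slc16a3 and Aldoc near its foot.

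**Figure D2:**
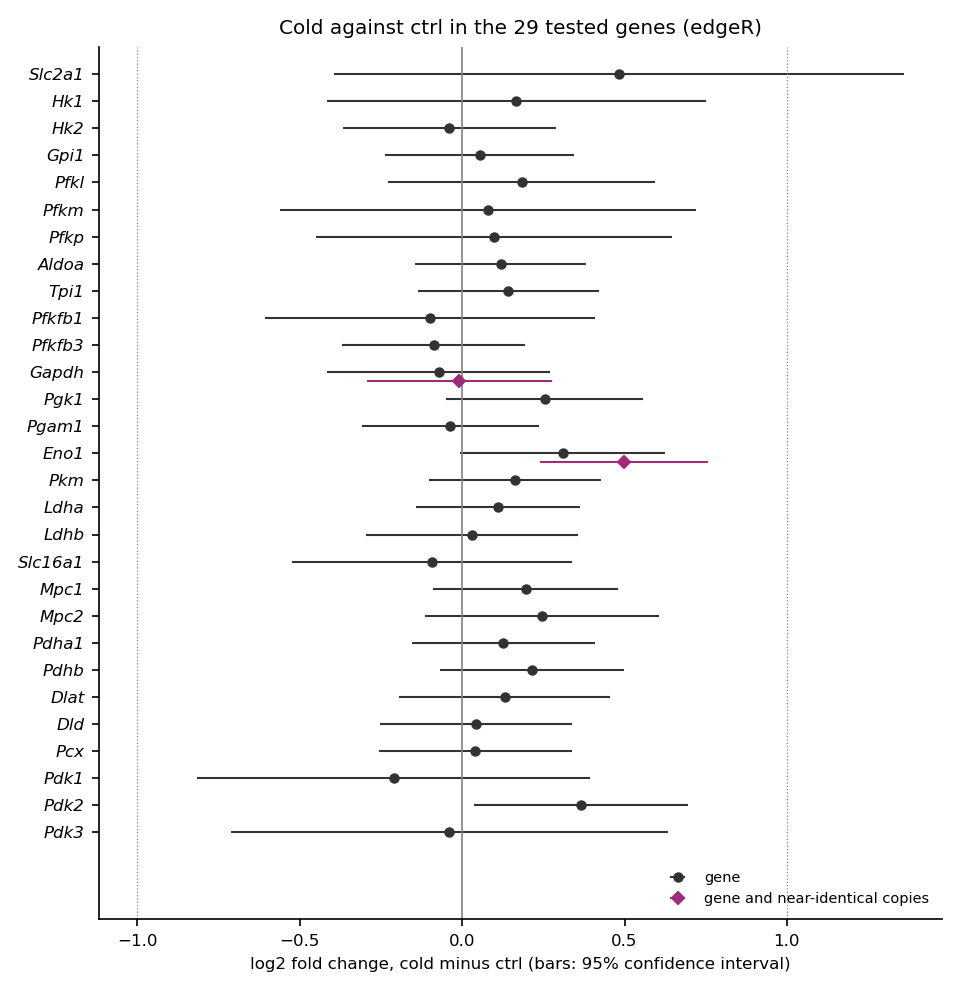
Log2 fold change (cold minus ctrl) of the 29 tested genes, with 95% confidence intervals from edgeR, 3 mice a group; dotted lines mark a 2-fold change. The interval of Pdk2 is the only one of a single gene that leaves 0 out. The diamonds show Gapdh and Eno1 after reads of the copies that share sequence with them were added.

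Few reads fell on the glucose carrier gene Slc2a1. Slc2a1, the basal glucose carrier GLUT1, had 7.47, 17.2 and 4.41 CPM in ctrl 5, 6 and 10 and 15.2, 15.9 and 10.2 CPM in cold 7, 12 and 16. These rest on 35 and 38 reads a group, the groups overlapped, and the log2 fold change of 0.48 ± 0.42 (SE) allowed changes from 0.761-fold to 2.57-fold. It depended on single mice, at 1.27 without ctrl 6 and 0.13 without ctrl 10, with adjusted p-values in edgeR of 0.479 and 0.982. The insulin-regulated carrier gene Slc2a4, from a list of other isozymes, had 78.6 ± 8.0 CPM in ctrl and 84.7 ± 12.0 CPM in cold (SD, n = 3).

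Among the enzymes that prepare glucose for cleavage, hexokinase 2 (Hk2) and liver-type phosphofructokinase (Pfkl) led their families. Hk2 had 135, 109 and 112 CPM in ctrl and 89.6, 120 and 128 CPM in cold, and Hk1, the hexokinase of most tissues, 17.1 to 23.8 and 15.2 to 30.7 CPM. Hk1 thus made up 15.1% ± 3.42 of hexokinase reads in ctrl and 16.7% ± 2.46 in cold (SD, n = 3). Pfkl held 53.2% ± 8.76 and 55.2% ± 3.59 of phosphofructokinase reads, Pfkp, the platelet type, 30.3% ± 11.3 and 29.9% ± 0.215, and the muscle type Pfkm 16.5% ± 3.22 and 14.9% ± 3.71. The spread of Pfkp in ctrl came from ctrl 5 at 19.0% and ctrl 10 at 41.6%. Of the single-gene steps, Gpi1, which isomerises glucose-6-phosphate, had 120 to 141 CPM over all mice and Tpi1, triose phosphate isomerase, 334 to 435 CPM.

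Of the aldolases Aldoa and Aldoc, nearly all reads were Aldoa, with 672, 804 and 659 CPM in ctrl and 720, 768 and 791 CPM in cold. The groups overlapped, and the fold change was bounded between 0.905 and 1.3. Aldoc, the brain-type aldolase, had 4.27, 1.49 and 0.883 CPM in ctrl and 0, 14.3 and 7.66 CPM in cold, 7 and 23 reads in all. Aldoa made up 99.7% ± 0.273 of the reads of both in ctrl and 99.1% ± 0.911 in cold.

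Fructose-2,6-bisphosphate, the allosteric signal that speeds phosphofructokinase, is made and broken down by the Pfkfb enzymes. Pfkfb3 was the main one, with 433, 485 and 560 CPM in ctrl and 445, 422 and 503 CPM in cold. The groups overlapped, and the log2 fold change was -0.09 ± 0.14 (SE). It held 92.5% ± 2.21 of the family's reads in ctrl and 92.7% ± 1.85 in cold, with 6.47% and 6.14% for the liver-type Pfkfb1. Per kilobase of transcript, its share was 83.8% and 84.2%.

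The later enzymes, from Gapdh to Pkm, ranged widely in level. Gapdh, which oxidises glyceraldehyde-3-phosphate, had 1205, 1248 and 1107 CPM in ctrl and 1307, 1252 and 758 CPM in cold, so cold 16 stood below all other mice. Its log2 fold change was -0.07 ± 0.16 (SE), and 0.14 without cold 16. Pgk1, phosphoglycerate kinase, had 103, 122 and 113 CPM in ctrl and 127, 146 and 123 CPM in cold. It was higher in every cold mouse by a narrow margin, with a log2 fold change of 0.25 ± 0.14 and an adjusted p of 0.704 in edgeR, but at -0.02 in the X1 files alone. Pgam1, phosphoglycerate mutase, had 176 to 212 CPM over all mice.

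Eno1, the enolase of most tissues, had 201, 202 and 195 CPM in ctrl and 256, 283 and 183 CPM in cold. Cold 7 and cold 12 lay above ctrl and cold 16 below, and the log2 fold change was 0.31 ± 0.15 (SE; edgeR unadjusted p = 0.0555, adjusted p = 0.612). The muscle enolase Eno3 had 4.41 to 9.60 CPM in ctrl and 5.11 to 13.4 CPM in cold, which left Eno1 at 96.4% of the reads of both in either group.

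Eno1 and Gapdh share sequence with copies elsewhere in the genome, and these copies had reads. A search for transcripts of other genes with at least 20% of their 31-base words in one of the 33 genes, and at least 10 reads, returned Eno1b for Eno1 and Gm3839, Gm7336, Gm3272 and Gm10358 for Gapdh. The share of such words was 87.9% for Eno1b and 55.6% for Gm3839, which held 1398 of the 1535 reads of the Gapdh copies. How the counting placed a read that matches a gene and its copy is not given in the sources used here. Eno1b on its own had a log2 fold change of 0.71 ± 0.19 (SE, edgeR unadjusted p = 0.00119, adjusted p = 0.122). Its level was 176, 133 and 162 CPM in ctrl and 199, 204 and 356 CPM in cold. Cold 16 thus had the highest level of the copy and the lowest of Eno1, and Eno1b took 66.1% of their joint reads there, against 39.7% to 46.7% in the other 5 mice. The 4 Gapdh copies took 32.9% of their joint reads with Gapdh in cold 16 and 14.2% to 16.9% elsewhere.

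Eno1 and Eno1b together separated the groups more clearly than Eno1 did, and Eno1b alone also separated them. Their joint level was 376, 334 and 357 CPM in ctrl and 455, 487 and 539 CPM in cold, so all 3 cold mice lay above all ctrl mice. With the copies' reads added before the fit, an alternative chosen after the data had been seen, the log2 fold change of enolase was 0.50 ± 0.12 (SE; 1.18-fold to 1.69-fold), with an edgeR unadjusted p of 0.000715 and an adjusted p of 0.0822, which missed the threshold. Leaving out each mouse in turn gave 0.44 to 0.53, with adjusted p-values of 0.051 to 0.305, and over all 17 alternatives for Eno1 the adjusted p ran from 0.0822 to 1. Gapdh with its copies had 1446, 1501 and 1310 CPM in ctrl and 1524, 1497 and 1129 CPM in cold, and its log2 fold change was -0.01 ± 0.14, or 0.13 without cold 16.

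**Figure D3:**
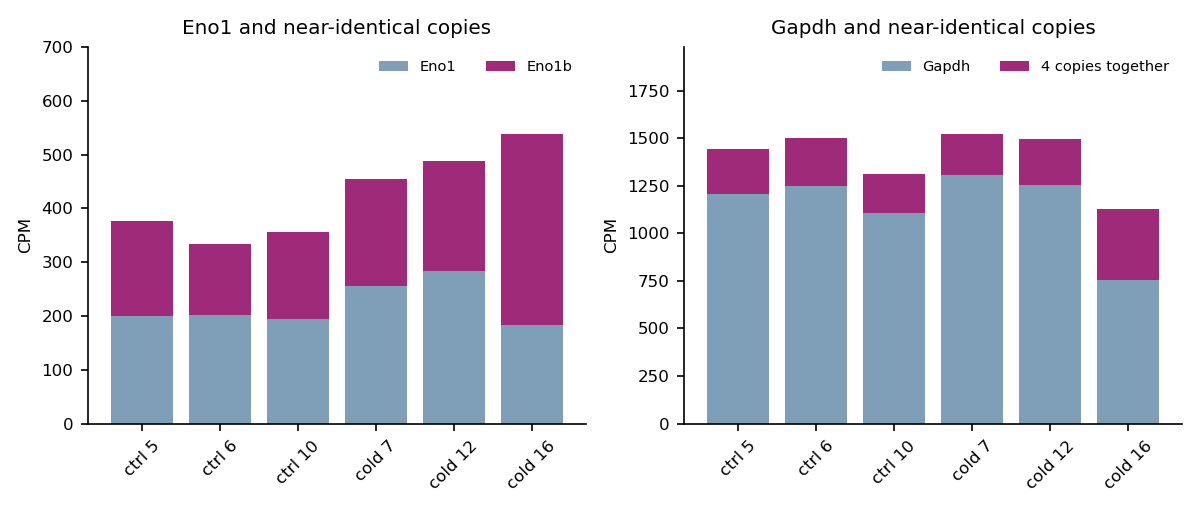
CPM of Eno1 and Eno1b (left) and of Gapdh and its 4 copies together (right) in each mouse, as stacked bars. In cold 16 the copies make up 66.1% and 32.9% of the joint bars, the largest shares among the 6 mice, and the joint enolase bars of the cold mice (455 to 539 CPM) are all taller than those of ctrl (334 to 376 CPM).

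Pyruvate kinase of this fat was almost wholly the M2 form, the form of most non-muscle tissues. Pkm had 327, 369 and 325 CPM in ctrl and 349, 411 and 362 CPM in cold, with overlapping groups and a log2 fold change of 0.16 ± 0.13 (SE). Of 2186 reads on the transcripts that carry either exon shown above, 76 were on the M1 form. Its share was 3.58%, 3.05% and 3.56% in ctrl and 6.4%, 3.06% and 2.13% in cold, so the highest and the lowest value were both from cold mice (exact permutation test, 2-sided, p = 0.9; the smallest p that 3 against 3 allows is 0.1). The exact 95% binomial intervals of all 6 shares overlapped, and they cover counting error only. Skeletal muscle markers summed to 16.0 to 29.9 CPM in ctrl and 10.1 to 26.2 CPM in cold, with Myh4 at 0 and cold 7 at 26.2 CPM, and the part of muscle in the M1 reads was not tested. Ptbp1, a splicing factor known to favour the M2 exon, had 102 ± 6.22 CPM in ctrl and 119 ± 1.64 CPM in cold (SD, n = 3; edgeR adjusted p = 0.711).

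Lactate dehydrogenase was mostly of the muscle type. Ldha had 710, 772 and 696 CPM in ctrl and 767, 741 and 802 CPM in cold, and Ldhb, the heart type, 83.8 to 97.8 and 81.8 to 105 CPM. Ldha therefore held 88.1%, 88.8% and 89.3% of their reads in ctrl and 89.5%, 87.6% and 90.8% in cold, and the groups overlapped. The fold change of Ldha was bounded between 0.906 and 1.28. Of the lactate carriers, the widespread Slc16a1 (MCT1) had 56.5, 40.3 and 60.0 CPM in ctrl and 40.0, 47.0 and 56.2 CPM in cold. Slc16a3 (MCT4), the carrier of strongly glycolytic cells, stayed at 1.77 to 4.19 CPM, on 10 reads in each group, so no difference in it could be seen at this depth.

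Mitochondrial pyruvate entry had well-read members, none of which passed the test. Mpc1 and Mpc2, the subunits of the pyruvate carrier, had 440, 497 and 386 CPM and 327, 490 and 260 CPM in ctrl, and 539, 517 and 430 CPM and 392, 422 and 446 CPM in cold. Ctrl 6 was high and ctrl 10 low for both subunits, and Mpc1 made up 55.8% ± 4.85 of their reads in ctrl and 54.0% ± 4.49 in cold. Pyruvate carboxylase (Pcx), which supplies oxaloacetate for fatty acid synthesis in fat cells, had 280, 342 and 287 CPM in ctrl and 276, 278 and 369 CPM in cold.

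The pyruvate dehydrogenase complex oxidises pyruvate to acetyl-CoA. Pdhb, its E1 beta subunit, had 162, 189 and 176 CPM in ctrl and 189, 222 and 189 CPM in cold. The cold mice lay above ctrl, but the nearest values were equal when rounded to whole CPM, and the adjusted p was 0.752 in edgeR. Pdha1 (E1 alpha), Dlat (E2) and Dld (E3) had 188 to 229, 74.1 to 94.8 and 133 to 172 CPM over all mice, with overlapping groups. Per kilobase, the order of the E1 subunits turned: Pdha1 had 53.1% of their reads in ctrl but 37.9% of reads per length.

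Of the 29 tested genes taken singly, Pdk2 showed the clearest difference. It encodes a widely expressed pyruvate dehydrogenase kinase, which switches the complex off by phosphorylation, and it had 78.9, 75.4 and 70.6 CPM in ctrl and 101, 99.8 and 83.0 CPM in cold. All cold mice lay above all ctrl mice. The log2 fold change was 0.36 ± 0.16 (SE; edgeR unadjusted p = 0.0316, adjusted p = 0.534), and over 17 alternatives it ran from 0.12 to 0.57 with adjusted p-values of 0.32 to 1. Pgk1, Pdhb and Pdk2 were the 3 of 29 genes higher in cold without overlap, against 5.96% of all tested genes, and 0 were lower without overlap, against 7.7%.

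Pdk2 held 66.1%, 71.1% and 65.6% of the reads of Pdk1, Pdk2 and Pdk3 in ctrl and 83.0%, 72.1% and 71.4% in cold. Pdk1, a kinase known for its induction in hypoxia, held 20.5%, 16.9% and 18.0% in ctrl and 9.09%, 14.5% and 16.5% in cold. Neither share overlapped between groups, and each reached the smallest exact permutation p possible (0.1, 2-sided, and 0.8 adjusted over the 16 isozyme shares tested). Cold 7 was farthest from ctrl in both. It also had the largest sum of the epididymis and sperm list, most of it Crisp1, and the part of this in the shares was not tested. Without cold 7 the difference in means was 4.18 percentage points for Pdk2 and -2.98 for Pdk1, against 7.91 and -5.12 with it. For Pdk2 it was 13.6 in the X1 files alone and 1.69 in the X2 files alone. Pdk3 held 13.9% ± 2.26 and 11.1% ± 2.82. Pdk4, the kinase raised by fasting, came from the list of other pyruvate genes and had 15.2 ± 2.94 CPM in ctrl and 17.2 ± 7.47 CPM in cold.

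**Figure D4:**
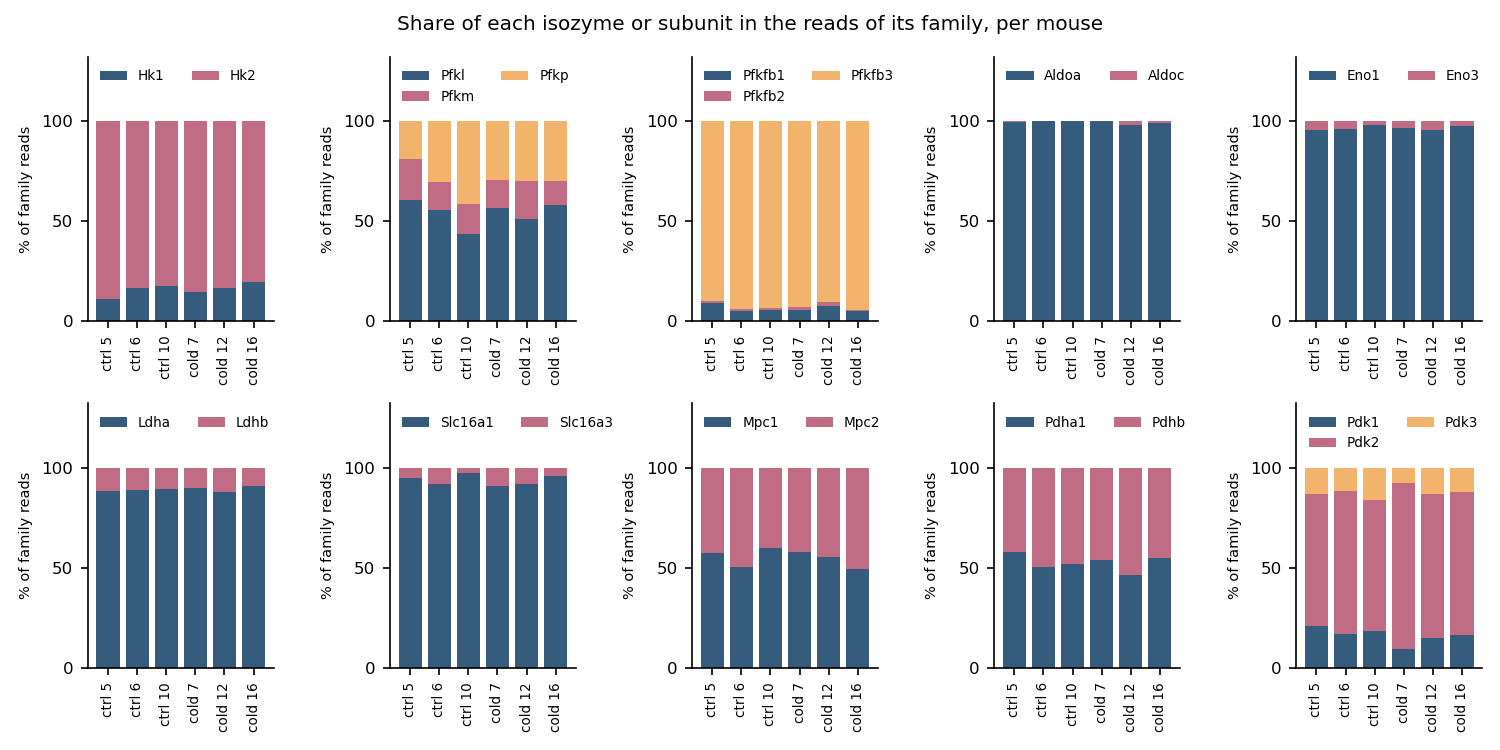
Share of each isozyme, subunit or carrier in the reads of its family, in percent, for each mouse. Hk2, Pfkfb3, Aldoa, Eno1, Ldha and Slc16a1 dominate their families in all 6 mice, and the Pdk2 band is wider in the cold mice (71.4% to 83.0%) than in ctrl (65.6% to 71.1%).

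In CPM per kilobase of annotated transcript length, Gapdh led in ctrl with 816, ahead of Aldoa (473), Mpc1 (462), Ldha (459), Mpc2 (352) and Tpi1 (233). Pkm followed with 141, and Pdhb, Pgam1, Pfkfb3 and Eno1 lay between 99.4 and 115. Aldoa, Mpc1 and Ldha did not differ beyond their spread. Slc16a3 and Aldoc stood lowest, at 0.921 and 0.90 CPM per kilobase. A long read usually stands for 1 molecule whatever its length, in which case CPM itself compares genes and division by length favours short transcripts. By mean CPM in ctrl the order was Gapdh (1187), Ldha (726), Aldoa (712), Pfkfb3 (493) and Mpc1 (441).

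Most of the genes were read from a single main transcript, and no transcript passed the test. The most-read transcript was protein coding in all 33 genes, held over 90% of reads in 14 and under 50% in 5. Of 52 tested transcripts 0 passed in edgeR, against 0.381% of all 12325. An unadjusted p under 0.05 was found for 4 (Mpc1-201, Ldha-214, Eno1-201 and Pdk2-201), with adjusted p-values of at least 0.379. The share of all transcripts under that unadjusted level was not computed, so the 4 cannot be called more than usual. Transcript usage (edgeR diffSpliceDGE, Simes p per gene) passed in 0 of 14 tested genes, against 0% of all 2624, and 0 of the 14 had an unadjusted p under 0.05 with all 6 mice. The smallest Simes p-values were those of Mpc1 (0.0501), Gapdh (0.254), Pfkfb1 (0.263), Ldha (0.525) and Aldoa (0.54). Single libraries moved the first of these: without cold 7 the p was 0.0209 for Mpc1 and 0.0137 for Gapdh, without cold 16 it was 0.536 and 0.939, and without cold 12 that of Mpc1 was also under 0.05.

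Pfkfb3 was the most divided of the well-read genes. Its transcripts Pfkfb3-220, Pfkfb3-214, Pfkfb3-201 and Pfkfb3-206 held 29%, 26%, 22.5% and 12.4% of reads. The 87-base exon shown above was included in 26.9%, 29.6% and 27.8% of the informative reads in ctrl and 26.6%, 25.1% and 24.6% in cold. Every cold mouse lay below every ctrl mouse, the exact permutation p was 0.1 (2-sided, the smallest possible; 0.65 adjusted over 13 splicing and start-site shares), and all binomial intervals overlapped. The distal of its start regions was used in 35.1% ± 2.25 of reads in ctrl and 38.7% ± 2.54 in cold (SD, n = 3).

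Start sites also divided other genes. The distal promoter of Pcx gave 73.9% ± 3.54 of reads in ctrl and 73.4% ± 3.19 in cold, counted over Pcx-201 and Pcx-204 against Pcx-202. The distal start of Aldoa gave 12.1% ± 1.79 and 12.9% ± 2.80. Pfkfb1 and Hk1 used their distal starts in 68.1% ± 13.4 and 41.1% ± 22.9 of reads in ctrl and 54.4% ± 12.6 and 34.7% ± 6.48 in cold, on 189 and 133 reads in all, and the groups overlapped in both. The distal first exon of Gapdh took 10.7% to 13.9% of reads in 5 mice and 28.7% in cold 16, and the internal start of Eno1 took 8.7% to 11.5% and 27.3%.

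Of the reads of Mpc1-201 and Mpc1-208, the former held 4.87%, 4.07% and 3.68% in ctrl and 5.13%, 5.56% and 10.2% in cold. Of the 25-base words of Mpc1-201, 25 are absent from Mpc1-208, as many as 1 differing base gives. Its ends thus hold no sequence of their own, whereas Mpc1-208 has 63 words that Mpc1-201 lacks. The part of base errors and shortened reads in this share was not tested. All cold values lay above ctrl, and cold 16 was highest. The log2 fold change of Mpc1-201 itself was 0.85 ± 0.27 (SE; edgeR unadjusted p = 0.00543, adjusted p = 0.379), from 0.63 to 0.97 over 11 alternatives with adjusted p-values of 0.18 to 1. Mpc1-201 holds 5.28% of Mpc1 reads, below the 10% set for naming a transcript, and is named here because its values were seen.

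Cold 16 stood apart in how reads fell on transcripts of the same gene. Gapdh-203 held 81.9%, 83.3% and 81.3% of Gapdh reads in ctrl, 85.2% and 81.1% in cold 7 and cold 12, and 59.9% in cold 16. Ldha-202 held 63.8% to 68.6% of Ldha reads in the other 5 mice and 46.8% in cold 16, while the Ldha form that lacks the 51 bases shown above held 32.9% there and 18.4% to 23.0% elsewhere. The share in cold 16 was 70.6% for Eno1-202, 67.4% for Tpi1-205 and 68.2% for Aldoa-201. In the other 5 mice these forms held 87.3% to 90.3%, 78.1% to 85.4% and 75.0% to 80.2%. Between the groups, the exact permutation p of these 5 leading transcripts was 0.4 to 1. Cold 16 also stood apart over the transcriptome. In 1770 genes with at least 500 reads and 2 transcripts, the median share of the most-read transcript was 81.1% to 82.5% in the other 5 mice and 74.7% in cold 16, which was lowest in 51% of those genes and in 12 of the 19 members among them (63.2%).

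**Figure D5:**
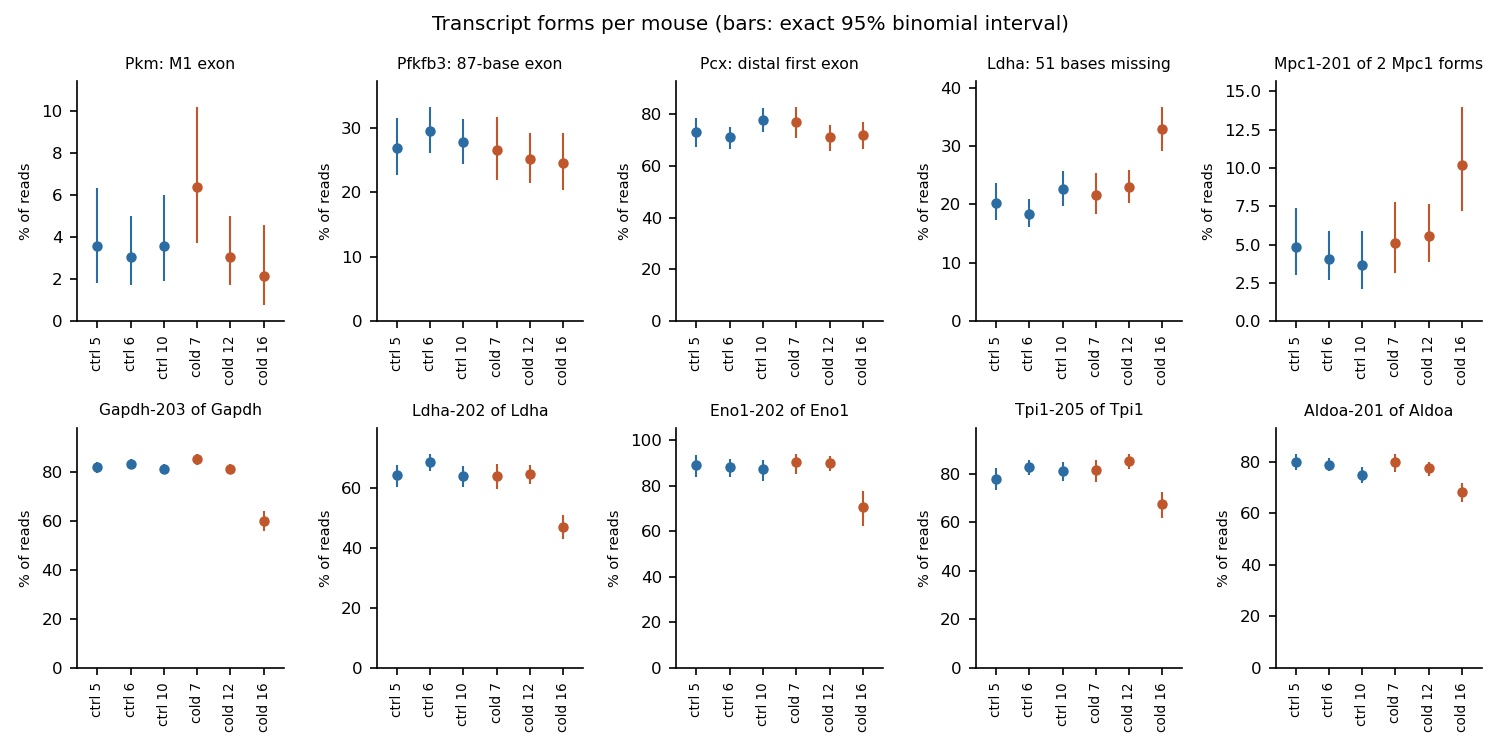
Share of a transcript form in each mouse, in percent, with exact 95% binomial intervals (counting error only); blue is ctrl and orange is cold. The Pkm M1 share stays between 2.13% and 6.4%, and cold 16 is the lowest point for Gapdh-203, Ldha-202, Eno1-202, Tpi1-205 and Aldoa-201.

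Genes around the pathway that had enough reads to be tested gave no call. Of other isozymes and carriers, 8 of 18 genes with reads were tested and 0 passed (median log2 fold change 0.15). Ldhd, the mitochondrial D-lactate dehydrogenase, came nearest: it had 14.9, 11.9 and 12.4 CPM in ctrl and 20.7, 25.2 and 37.0 CPM in cold, without overlap (log2 fold change 1.10 ± 0.29, edgeR adjusted p = 0.12, and 0.0257 without the filter on low reads). Adpgk, an ADP-dependent glucokinase, and Bpgm, which makes 2,3-bisphosphoglycerate, had 15.1 ± 1.68 and 16.2 ± 2.18 CPM in ctrl and 21.8 ± 3.63 and 19.0 ± 0.457 CPM in cold.

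Isozymes known from sperm, below the filter, had reads mainly in cold mice. Ldhc, the lactate dehydrogenase of sperm, had 0, 0.747 and 0 CPM in ctrl and 24.8, 13.4 and 0 CPM in cold 7, 12 and 16. Gapdhs, the sperm form of Gapdh, had 0, 1.49 and 2.65 CPM in ctrl and 9.65, 5.03 and 2.55 CPM in cold. These rest on 18, 16 and 0 reads of Ldhc and 7, 6 and 2 reads of Gapdhs in cold 7, 12 and 16. The sperm markers Prm1, Prm2, Tnp1 and Tnp2 had 26.2, 37.2, 22.1 and 5.52 CPM in cold 7. They had 42.8, 37.7, 24.3 and 10.9 CPM in cold 12, and 1.28, 6.39, 1.28 and 1.28 CPM in cold 16. Crisp1 of the epididymis, which made up most of the list's sum in cold 7, had 306, 0 and 2.55 CPM in cold 7, 12 and 16. Without the filter on low reads, edgeR gave adjusted p-values of 1.28e-07 for Ldhc and 0.393 for Gapdhs. The same fit gave 1.72e-61 for Crisp1, with 222, 0 and 2 reads in cold 7, 12 and 16. Small p-values without the filter, here and elsewhere, can thus rest on a single mouse. Ldhc and Gapdhs were singled out after their values were seen. The part of other tissues in the reads of the 33 genes was not tested.

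Of other genes of pyruvate handling, 12 were tested and 0 passed (median log2 fold change 0.03). Those with the smallest p were Pdp1, a phosphatase that reactivates pyruvate dehydrogenase (19.8 ± 4.22 CPM in ctrl, 11.5 ± 3.85 in cold), Got2 (32.7 ± 2.22 and 41.7 ± 3.03) and Mdh1 (505 ± 63.6 and 580 ± 41.4), which shuttle aspartate and malate. Of 17 tested genes of the glycerol and pentose branches 0 passed (median 0.05). Gpd1, which draws triose phosphate to glycerol-3-phosphate for fat, had 429, 410 and 379 CPM in ctrl and 419, 497 and 764 CPM in cold, overlapping groups with cold 16 far above the rest (edgeR adjusted p = 0.335). Pck1, the enzyme of glyceroneogenesis, had 1206 ± 222 and 928 ± 135 CPM and Pgd of the pentose branch 227 ± 51.8 and 275 ± 38.9 CPM.

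The fructose bisphosphatases, which reverse the phosphofructokinase step, had too few reads to be tested and were higher in every cold mouse. Fbp1 had 0, 1.49 and 0 CPM in ctrl 5, 6 and 10 and 9.65, 20.1 and 19.2 CPM in cold 7, 12 and 16. Fbp2 had 1.07, 2.99 and 0 CPM in ctrl and 4.14, 11.7 and 12.8 CPM in cold. Without the filter on low reads, edgeR gave adjusted p-values of 6.19e-10 for Fbp1 and 0.00375 for Fbp2. Both genes had reads in every cold mouse, but that fit gave Crisp1 a small p-value from a single mouse. Neither p-value is therefore taken as a call. Fbp1 and Fbp2 rest on 48 and 32 reads in all and were singled out after their values were seen. Epcam, an epithelial marker, had 12.4, 45.3 and 33.2 CPM in the same cold mice, and the part of epithelial cells in the reads of Fbp1 and Fbp2 was not tested.

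Of 13 tested regulators 0 passed (median log2 fold change -0.01). Arnt, the partner of hypoxia-inducible factors, had 96.0, 95.6 and 75.9 CPM in ctrl and 56.5, 67.1 and 70.3 CPM in cold, without overlap (edgeR adjusted p = 0.441). Mlxipl, the glucose-sensing factor ChREBP, and Egln1, an oxygen sensor, had 69.5 ± 10.9 and 64.7 ± 10.2 CPM in ctrl and 86.7 ± 16.3 and 78.7 ± 8.44 CPM in cold.

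Marker sums of the remaining cell types overlapped between the groups. Macrophage markers summed to 1330 to 1716 CPM in ctrl and 1143 to 1928 CPM in cold, endothelial ones to 716 to 734 and 572 to 772, fibroblast ones to 2212 to 3230 and 2358 to 3465, mesothelial ones to 71.7 to 215 and 144 to 211, and lymphoid ones to 9.71 to 22.4 and 8.94 to 16.8. Erythroid markers summed to 5326 to 9319 and 4695 to 9068 CPM and thermogenic ones to 43.7 to 71.7 and 59.3 to 94.5 CPM, with Ucp1 on 2 reads in all. Beside Epcam and Cldn7, 3 tested markers rose (edgeR): the lipase gene Pnpla2 of the adipocyte list (1243 ± 89.98 CPM in ctrl, 1912 ± 91.8 in cold), and the keratins Krt8 (4.46 ± 2.99 and 35.8 ± 12.0) and Krt18 (5.19 ± 1.91 and 31.2 ± 11.6) of the mesothelial list, which epithelia also express. Of the tested markers, 0 fell. Of the other mesothelial markers, Upk3b had 67.5 ± 32.9 CPM in ctrl and 37.4 ± 28.6 in cold. Its edgeR adjusted p was 0.557, and 0.00514 without the filter on low reads. The untested Lrrn4 had 14.5 ± 6.8 and 2.89 ± 0.416 without overlap (0.00184 without the filter). Wt1, also untested, had 13.8 ± 7.68 and 6.94 ± 0.582 with overlap (0.586). The fit without the filter gave Crisp1 a small p-value from a single mouse, so these p-values are not taken as calls. Krt19 had a higher mean in cold (12.3 ± 6.99 and 18.9 ± 4.70). Msln (24.3 ± 13.7 and 22.5 ± 11.5) and Upk1b (18.9 ± 9.06 and 17.6 ± 11.3) had close means, and all 3 overlapped between groups. The mesothelial sum thus joins keratins that rose with members whose means were lower or close.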

How the data were processed

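Poly-A RNA of 6 mice, 3 a group, was analysed. The authors deposited whole read counts per transcript in 12 files, 2 a mouse (X1 and X2), made from reads aligned with minimap2 to GRCm38, per the submitters' processing notes. For the minimap2 version, the counting tool, strand use and the placing of reads that match several transcripts, the sources used here give nothing. Of the 33 genes, 10 are overlapped by another gene with at least 10 reads, so reads of such pairs may be mixed. The 2 files of a mouse differed by about the sampling noise (chi-square per degree of freedom 1.02 to 1.06) and were summed, so replicates are mice. Of 61729 transcript identifiers, 61538 were found in GENCODE M21; the others, 0.139% to 0.165% of reads, were left out of gene sums.

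Gene, transcript and usage tests were run over all features with edgeR 4.0.16 (TMM, filterByExpr with a minimum count of 10, quasi-likelihood test, diffSpliceDGE) in R 4.3.3. Adjusted p-values are Benjamini-Hochberg, with a threshold of 0.05. Shares were compared by exact permutation tests in Python 3.11.15. Values ± are SD over 3 mice unless called SE. Alternatives were other normalizations and filters, DESeq2 1.42.0, limma 3.58.1, X1 or X2 files alone, protein-coding transcripts alone, shares per length, and leaving out each mouse. The methods were tested on simulated data.

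The 33 genes and all lists (4 of pathway genes, 11 of cell type markers) were chosen with earlier results of these data known. Named were all 33 genes, the 3 genes of each pathway list with the smallest p, any feature past the threshold, and the 5 genes with the smallest usage p. Of the 60 transcripts with at least 10% of a gene's reads, which the rule also covers, the text names some, chosen after their values were seen. Slc2a4, Pdk4 and Ptbp1 were named besides, for their known roles. A gene of the list of other isozymes is not reported here.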

Additional observations from a re-analysis of the deposited data

How the results depend on the processing

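At the gene, transcript and usage level, 0 members passed in any of the 18, 12 and 11 settings run, the main one included. The count over all genes was 64, and it was 371 without the filter on low reads, 199 without cold 7, 106 without ctrl 5, 38 in the X2 files alone, and 35 without cold 12. Over all transcripts it was 47, and it was 162 without cold 7, 71 without ctrl 5 or cold 16, 30 and 26 in the X1 and X2 files alone, and 26 without cold 12. Usage gave 1 call over all genes without cold 7 and 0 otherwise. Using one file of each mouse leaves fewer reads. In X1 files alone the log2 fold change turned to 0.12 for Hk2, -0.015 for Pfkl, -0.022 for Pgk1, 0.00335 for Pgam1, -0.21 for Ldhb and 0.061 for Pdk1, and in X2 files alone to -0.19 for Dld and -0.053 for Pcx; the cause was not tested. The differences in isozyme share (cold minus ctrl, percentage points) became 9.65 for Pfkl in X2, 2.46 and -6.29 for Pfkm in X1 and X2, 2.12 and -1.40 for Ldha, -4.92 for Slc16a1 in X2, 13.6 and 1.69 for Pdk2, and -9.08 and 4.37 for Pdk3. The Pfkfb1 distal start share became -28.0 in X2. Leaving out each mouse in turn, log2 fold changes crossed 0 for Hk1 (-0.036 to 0.34), Hk2 (-0.12 to 0.072), Pfkm (-0.23 to 0.22), Pfkp (-0.15 to 0.27), Pfkfb1 (-0.31 to 0.069), Pfkfb3 (-0.18 to 0.016), Gapdh (-0.23 to 0.14), Pgam1 (-0.077 to 0.023), Ldhb (-0.087 to 0.12), Slc16a1 (-0.27 to 0.031), Dld (-0.056 to 0.14), Pdk3 (-0.33 to 0.13) and Pcx (-0.10 to 0.13). All other values kept their direction or moved by less than 1 SD between mice. The alternatives for start sites, splice forms other than the Pkm M1 exon and leading transcripts, and the addition of copies, were chosen after seeing the data. No paired analysis was possible because the ctrl mice (5, 6, 10) and the cold mice (7, 12, 16) share no replicate number. Depth limits Slc2a1, Hk1, Pfkm, Pdk1 and Pdk3, each under 150 reads.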
